A study of Mus musculus with 23 samples.

Results

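Insulin and mTOR signalling genes in mouse gastrocnemius muscle were followed through 10 genes: the insulin receptor gene Insr, the docking protein genes Irs1 and Irs2, the lipid kinase subunit gene Pik3r1, the protein kinase genes Akt1 and Akt2, the Rab regulator genes Tbc1d1 and Tbc1d4, and Mtor with its partner gene Rptor. Every probe that the platform annotation gives to 1 of these genes under its current symbol was taken, which gave 27 of the 45281 probes on the array, with at least 1 for each of the 10 genes, out of 19057 genes that the probes name. The rule names the genes and uses no signal, and the genes were picked with earlier results of these data known. The arrays compared mice with an engineered tandem duplication (Ts2Yah Dup, 6 mice) or deletion (Ms3Yah Del, 6 mice) of the Hspa13 to App segment of chromosome 16 with diploid littermates of each line (Ts2Yah WT, 5 mice, and Ms3Yah WT, 6 mice). The study's text names the duplication Ts3Yah. All mice were adults on a C57BL/6J background, their exact age at dissection is not given in the sources used here, and each array read the muscle of 1 mouse. Both rearrangements were made with Cre recombinase in embryonic stem cells, so every cell of the body carries them, and the targeting left App without an additional working copy in the duplication. None of the 10 genes lies on chromosome 16, so both rearrangements left their copy number untouched.

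Insulin binding activates the receptor kinase, which phosphorylates the docking proteins. These recruit the lipid kinase PI3-kinase, whose regulatory subunit p85-alpha is made from Pik3r1, and the lipid it produces recruits AKT kinases to the membrane. AKT phosphorylates TBC1D4 and TBC1D1, which releases Rab proteins and lets vesicles with the glucose transporter GLUT4 reach the surface of the muscle fibre. AKT also relieves the brake that the TSC complex puts on mTOR complex 1, a kinase assembly of mTOR and raptor (from Rptor) that senses amino acids at the lysosome and drives protein synthesis and muscle growth. Phosphorylation carries most of this signalling, whereas an array reads only the level of each RNA.

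The tissue and the labels held up on the arrays. Each array detected between 16945 and 18669 probes (detection p-value below 0.05), and all 8 skeletal muscle markers examined were detected on every array. The brightest probe of Atp5j, a gene inside the segment, had mean signals of 25728 in Ts2Yah Dup, 19931 in Ts2Yah WT, 12927 in Ms3Yah Del and 19888 in Ms3Yah WT. Its log2 change in the Ts2Yah line was 0.37 (limma p adjusted over all tested probes 0.136), and that of a second probe was 0.48 (0.0448). The brightest App probe had 1305 in Ms3Yah Del against 2381 in Ms3Yah WT, and 2324 against 2370 in the other line. Of the dimmer App probes detected on every array, ILMN_2597532 had 399 in Ms3Yah Del against 622 in Ms3Yah WT. The other, ILMN_1255833, had 117 against 115 and did not show the loss. On the first principal component, with 27.5% of the variance, the lines did not overlap but lay next to each other. The Ts2Yah line ran from 5.77 to 21.1 and the Ms3Yah line from -29.7 to 4.78. The labels do not give the sex of the mice. Xist, the RNA of the inactive X chromosome of females, fell into a high class of 12 arrays and a low class of 11, with 4 of 6 Ts2Yah Dup, 2 of 5 Ts2Yah WT, 3 of 6 Ms3Yah Del and 3 of 6 Ms3Yah WT mice in the high class.

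Promoter windows were examined for the members in the RefSeq table of build GRCm38.p6, which spans 250 bases before to 50 bases after each annotated start. It held 15 windows for 9 of the 10 members and none for Insr. Those of Irs2 and Pik3r1 are shown, Irs2 because it was the member that passed an adjusted test between groups of mice, and Pik3r1 because it varied most from mouse to mouse and has starts of unlike composition. Capitals mark matches, on either strand, to the E-box CACGTG, the cyclic AMP response core site TGACG or the FOXO site TGTTTAC. The Irs2 window is chr8:11008880-11009179, and the Pik3r1 windows are chr13:101768168-101768467 for the first start and chr13:101692581-101692880 for the internal start, all on the minus strand and written 5′ to 3′.
Irs2: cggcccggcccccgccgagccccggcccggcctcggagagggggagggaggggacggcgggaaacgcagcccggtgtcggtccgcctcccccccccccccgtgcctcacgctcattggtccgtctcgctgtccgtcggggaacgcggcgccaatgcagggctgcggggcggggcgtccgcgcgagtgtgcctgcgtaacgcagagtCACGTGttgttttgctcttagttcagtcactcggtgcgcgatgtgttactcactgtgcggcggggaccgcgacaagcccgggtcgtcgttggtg
Pik3r1, first start: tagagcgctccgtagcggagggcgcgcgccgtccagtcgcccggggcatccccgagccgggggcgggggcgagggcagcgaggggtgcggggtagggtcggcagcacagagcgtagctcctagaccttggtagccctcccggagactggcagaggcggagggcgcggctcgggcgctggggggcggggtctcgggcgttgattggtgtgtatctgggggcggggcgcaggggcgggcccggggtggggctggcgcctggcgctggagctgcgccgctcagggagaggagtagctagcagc
Pik3r1, internal start: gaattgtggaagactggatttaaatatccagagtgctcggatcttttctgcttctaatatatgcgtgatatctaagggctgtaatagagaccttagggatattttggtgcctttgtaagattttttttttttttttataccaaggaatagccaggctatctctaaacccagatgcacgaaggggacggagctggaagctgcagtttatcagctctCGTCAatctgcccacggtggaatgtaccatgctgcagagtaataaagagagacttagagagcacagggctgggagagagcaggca
The Irs2 window held 1 E-box, a motif found in 7.15% of all 32851 windows of the table, and no match to the core site or the FOXO site. The other member window with an E-box was that of Irs1. The internal Pik3r1 window held 1 core site, found in 20.8% of all windows and in 6 of the 15 member windows, while the first start held none of the 3 motifs. The GC box GGGCGG, left in lower case, was found 4 times in the first Pik3r1 window and not in the internal one, against 35.7% of all windows with at least 1. GC content was 72.0% for Irs2, 75.7% for the first Pik3r1 start and 43.7% for the internal start. Motif and window are sequence descriptions, and nothing was measured at them here.

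Neither rearrangement moved any member past the adjusted threshold. In Ts2Yah Dup against Ts2Yah WT, 0 of 27 member probes had an adjusted p below 0.05 (limma, Benjamini-Hochberg adjustment over all probes tested), where 0.00455% of all tested probes did. At an unadjusted p below 0.05 there were 3 member probes (11.1%), against 5.56% of all tested probes. Of these 3, Irs2 and a dim Rptor probe were higher and the bright Rptor probe was lower in the duplication, where 2.74% of all tested probes were higher and 2.81% lower. In Ms3Yah Del against Ms3Yah WT, 0 of the 25 member probes above the expression threshold passed with adjustment (0.018% of all tested probes) and 0 without it (5.16% of all tested probes). In the test of the difference between the 2 lines' changes, 0 of 27 passed with adjustment (0.0266% of all tested probes) and 1, Irs2, without it (3.70%, against 5.71% of all tested probes). The median log2 change of the 8 member probes detected on every array was -0.08 in the Ts2Yah line and 0.03 in the Ms3Yah line, beside -0.0016 and -0.0032 over all probes so detected.

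**Figure D1:**
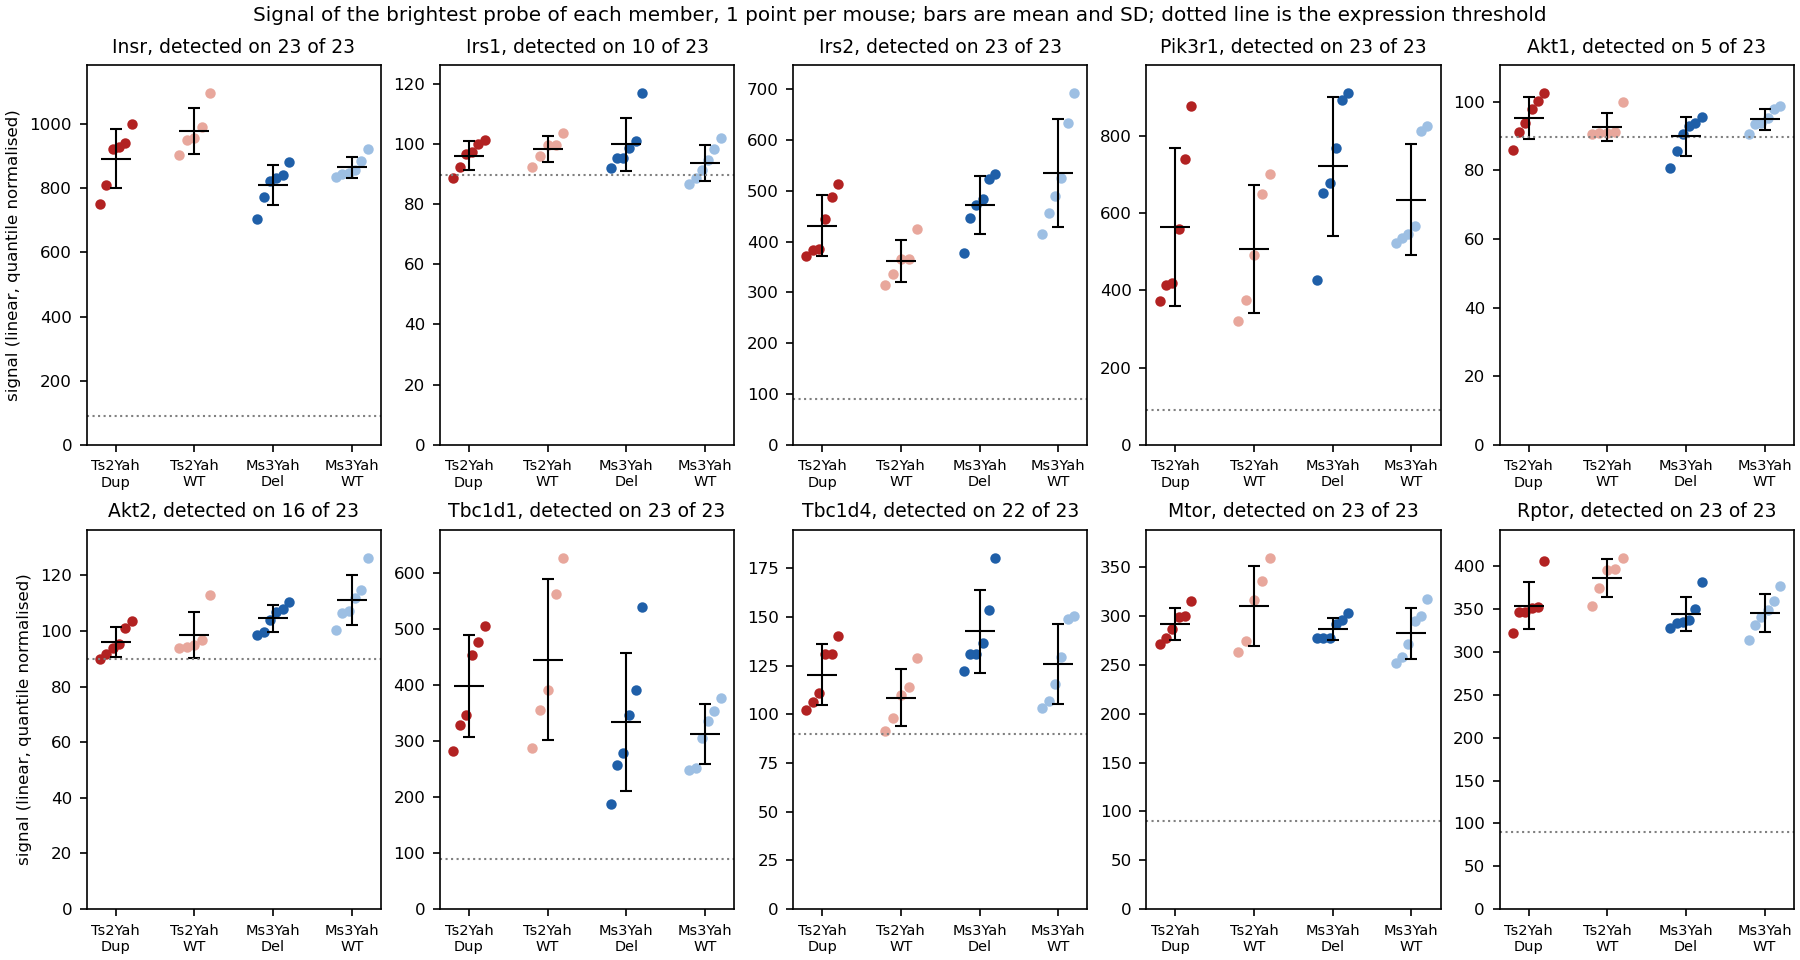
Linear quantile-normalised signal (y axis, from 0) of the brightest probe of each of the 10 genes in the 4 groups, with 1 point per mouse, bars for mean and SD, and a dotted line at the expression threshold of 89.8. Points within a group are spread sideways by rank only. Irs2 was lowest in Ts2Yah WT and highest in Ms3Yah WT, Pik3r1 and Tbc1d1 spread widely inside each group, and Irs1, Akt1 and Akt2 lay near the threshold.

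Probe coverage was uneven among the members. A total of 8 probes of 6 genes (Insr, Irs2, Pik3r1, Tbc1d1, Mtor and Rptor) were detected on all 23 arrays, 10 on some and 9 on none. The brightest was the Insr probe ILMN_1242794, with a mean signal of 883 over all mice, and the dimmest of the 8 was the second Tbc1d1 probe, with 170.1. Signals of different probes cannot be ranked as RNA levels, because each probe has its own affinity. The 9 undetected probes had mean signals of at most 89.6, so changes in them are differences within background. Irs1, Irs2 and Akt1 had 1 probe each, which leaves no second probe to set beside them.

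Insr encodes the receptor tyrosine kinase at the head of the pathway, and its mean was slightly lower in both aneuploid groups than in their littermates, without passing the test. The signals were 752, 811, 922, 929, 943 and 1000.2 in Ts2Yah Dup and 903, 951, 958, 991 and 1096 in Ts2Yah WT. They were 703, 773, 824, 832, 842 and 883 in Ms3Yah Del and 837, 846, 849, 859, 885 and 924 in Ms3Yah WT. In each line 1 aneuploid mouse lay above the mean of its littermates, and the ranges overlapped. The log2 change was -0.14 (SE 0.07, 95% interval -0.29 to 0.02, adjusted p = 0.909) in the Ts2Yah line. In the Ms3Yah line it was -0.10 (SE 0.05, 95% interval -0.21 to 0.01, adjusted p = 0.979). Two-sided exact permutation tests gave p = 0.149 and p = 0.0693, where the smallest p either design allows is 0.00216. The platform annotation lists no transcript for the bright Insr probe, on which all these values rest. It lists a transcript for each of the other 2 Insr probes, which were detected on 1 and 0 arrays.

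Irs2, which carries the signal from the receptor to PI3-kinase, was the member whose level differed most clearly between groups, and its changes in the 2 lines ran in opposite directions. It had signals of 372, 383, 386, 445, 488 and 513 in Ts2Yah Dup and 314, 336, 365, 366 and 424 in Ts2Yah WT. All 6 duplication mice lay above the mean of their littermates, though 3 of them lay below the highest littermate. In the other line the signals were 377, 446, 471, 484, 524 and 533 in Ms3Yah Del and 414, 456, 489, 525, 633 and 692 in Ms3Yah WT. On the log2 scale 1 deletion mouse lay above the mean of its littermates. The means were 431 ± 60.0 (SD, n = 6) against 361 ± 41.5 (n = 5), and 473 ± 57.1 (n = 6) against 535 ± 107 (n = 6). This gave a log2 change of 0.25 in the Ts2Yah line (SE 0.10, 95% interval 0.04 to 0.46), with a limma p of 0.0224, an adjusted p of 0.858 and a two-sided exact permutation p of 0.0563. It was -0.16 in the Ms3Yah line (SE 0.12, 95% interval -0.43 to 0.10, adjusted p = 0.989). The difference between these changes was 0.42 (SE 0.17, 95% interval 0.07 to 0.76), with a limma p of 0.0211 and an adjusted p of 0.792, so the opposite directions did not pass the test over all probes.

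Irs1, the docking protein held to carry most insulin signalling to glucose uptake in muscle, could not be followed with this array. Its only probe ran from 86.6 to 117 over all 23 mice and was detected on 10 of them, with means of 96.1 ± 4.78 (SD, n = 6) in Ts2Yah Dup, 98.2 ± 4.26 (n = 5) in Ts2Yah WT, 99.9 ± 8.86 (n = 6) in Ms3Yah Del and 93.6 ± 5.92 (n = 6) in Ms3Yah WT. A change in Irs1 RNA was not detectable at this signal.

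Pik3r1 varied more between mice of 1 group than between groups. Its brightest probe, ILMN_3114641, had signals of 373, 413, 420.0, 559, 740.2 and 879 in Ts2Yah Dup and 322, 374, 492, 649 and 702 in Ts2Yah WT. In the other line it had 428, 651, 678, 769, 894 and 911 in Ms3Yah Del and 523, 537, 546, 568, 813 and 827 in Ms3Yah WT. Within a group the highest mouse had between 1.58 and 2.36 times the signal of the lowest, and all groups overlapped. Fitted, the log2 change was 0.14 (SE 0.26, 95% interval -0.41 to 0.69) in the Ts2Yah line and 0.17 (SE 0.18, 95% interval -0.23 to 0.57) in the Ms3Yah line. The second detected probe, ILMN_2473531, gave 0.10 (SE 0.20) and 0.11 (SE 0.19). Adjusted p-values of both probes were 0.977 or more.

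Part of that spread moved with other readouts. In the Ts2Yah line the brightest Pik3r1 probe ran from 420.0 to 879 (median 675) in the 6 mice of the high Xist class and from 322 to 492 (median 374) in the 5 of the low class. For the Ms3Yah line the ranges were 523 to 911 (median 798) and 428 to 813 (median 609.6). With the Xist level as a covariate the log2 change in the Ts2Yah line turned from 0.14 to -0.08. After the mean of each group was taken off, Pik3r1 also followed the mean log2 level of 6 smooth muscle and pericyte markers (r = 0.63 over 23 mice) and of 7 adipocyte markers (r = 0.60). They are named here for having the largest r of all marker lists examined. Slow fibre markers had 0.45, macrophage 0.37, Schwann cell 0.29, fibroblast and matrix 0.27, erythroid -0.01, skeletal muscle -0.36 and endothelial -0.38. For the second detected Pik3r1 probe the smooth muscle, adipocyte and slow fibre lists had 0.61, 0.50 and 0.49. No smooth muscle or adipocyte marker was undetected on all arrays. The summed adipocyte level ran from 1411 to 7250 in the Ts2Yah line and from 2117 to 23410 in the Ms3Yah line. The summed smooth muscle level ran from 2534 to 5062 and from 2859 to 7291. The part of these readouts in the Pik3r1 spread was not tested. In whole muscle, fewer cells of a type and less RNA per cell cannot be told apart.

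Akt1 and Akt2, the kinases that relay the PI3-kinase signal, were near background on this array. The Akt1 probe was detected on 5 arrays and ran from 80.7 to 102 over all mice. The brightest Akt2 probe was detected on 16 arrays, on 2 of 6 Ts2Yah Dup, 2 of 5 Ts2Yah WT, 6 of 6 Ms3Yah Del and 6 of 6 Ms3Yah WT. Its means were 95.9 ± 5.34 (SD, n = 6), 98.5 ± 8.16 (n = 5), 105 ± 4.77 (n = 6) and 111 ± 8.92 (n = 6) in that order. The log2 change of Akt2 was -0.04 (SE 0.05, adjusted p = 0.970) in the Ts2Yah line and -0.09 (SE 0.05, adjusted p = 0.986) in the Ms3Yah line. For Akt1 it was 0.04 (SE 0.05, adjusted p = 0.966) and -0.08 (SE 0.04, adjusted p = 0.979). AKT2 is the form that serves glucose uptake, and its second probe was detected on no array.

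Tbc1d1 and Tbc1d4 encode the Rab regulators that AKT phosphorylates, and contraction acts on them too, through the energy sensor AMPK. The brightest Tbc1d1 probe had signals of 283, 329, 347, 454, 477 and 505 in Ts2Yah Dup and 288, 355, 392, 563 and 628 in Ts2Yah WT. It had 188, 257, 279, 348, 391 and 540.0 in Ms3Yah Del and 249, 253, 306, 336, 354 and 378 in Ms3Yah WT. As with Pik3r1, the mice of a group differed by up to 2.87 times, and the signals of aneuploid and diploid mice overlapped in both lines. Its log2 change came to -0.13 (SE 0.21, 95% interval -0.58 to 0.32, adjusted p = 0.973) and 0.03 (SE 0.21, 95% interval -0.43 to 0.49, adjusted p = 0.999). In the Ts2Yah line its signals ran from 347 to 628 (median 491) in the high Xist class and from 283 to 392 (median 329) in the low one. For the Ms3Yah line the ranges were 253 to 391 (median 327) and 188 to 540 (median 307). With the Xist level as a covariate the log2 change in the Ts2Yah line became -0.32 (adjusted p = 0.920). The second detected Tbc1d1 probe gave log2 changes of -0.08 (SE 0.10) and 0.06 (SE 0.13).

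Tbc1d4 was higher on average in both aneuploid groups, within the spread of the mice. Its brightest probe had 102, 106, 111, 131, 131 and 140.2 in Ts2Yah Dup against 91.2, 98.1, 110.0, 114 and 129 in Ts2Yah WT. In the other line it had 122, 131, 131, 137, 154 and 181 in Ms3Yah Del against 103, 107, 115, 129.7, 149 and 150.5 in Ms3Yah WT. The fitted change on the log2 scale was 0.15 (SE 0.10, 95% interval -0.07 to 0.37, adjusted p = 0.924) and 0.18 (SE 0.11, 95% interval -0.06 to 0.43, adjusted p = 0.987). Of the mice in the 2 aneuploid groups, 4 of 6 and 5 of 6 lay above the littermates' mean on the log2 scale.

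Mtor and Rptor were among the steadier members. Mtor, the kinase of both mTOR complexes, had signals of 271, 277, 287, 299.5, 299.6 and 315 in Ts2Yah Dup and 263, 275, 317, 336 and 360.0 in Ts2Yah WT. Among Ms3Yah mice it ran from 277 to 303 in Ms3Yah Del and from 252 to 317 in Ms3Yah WT. The log2 change was -0.08 (SE 0.08, 95% interval -0.25 to 0.08, adjusted p = 0.954) and 0.03 (SE 0.06, 95% interval -0.09 to 0.15, adjusted p = 0.997).

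Rptor, which encodes raptor, the subunit that brings substrates to mTOR complex 1, had a lower mean in the duplication, without passing the adjusted test. Its signals were 323, 346, 347, 352, 352 and 406 in Ts2Yah Dup and 354, 375, 396, 397 and 410.4 in Ts2Yah WT. Of the 6 duplication mice, 5 lay below every littermate, and the sixth, replicate 34730, lay between the 2 highest littermates. This gave a log2 change of -0.13 (SE 0.06, 95% interval -0.25 to -0.01), with a limma p of 0.0417, an adjusted p of 0.889 and a two-sided exact permutation p of 0.0714. In the Ms3Yah line the groups ran from 329 to 382 and from 314 to 378, with a log2 change of -0.0038 (SE 0.05, 95% interval -0.11 to 0.10, adjusted p = 1.00). The change in 1 line was not shown to differ from that in the other (difference -0.12, SE 0.08, adjusted p = 0.927). The 5 other Rptor probes were detected on at most 16 arrays. The dim Rptor probe ILMN_1218033, higher in the duplication by 0.08 on the log2 scale, was detected on none.

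**Figure D2:**
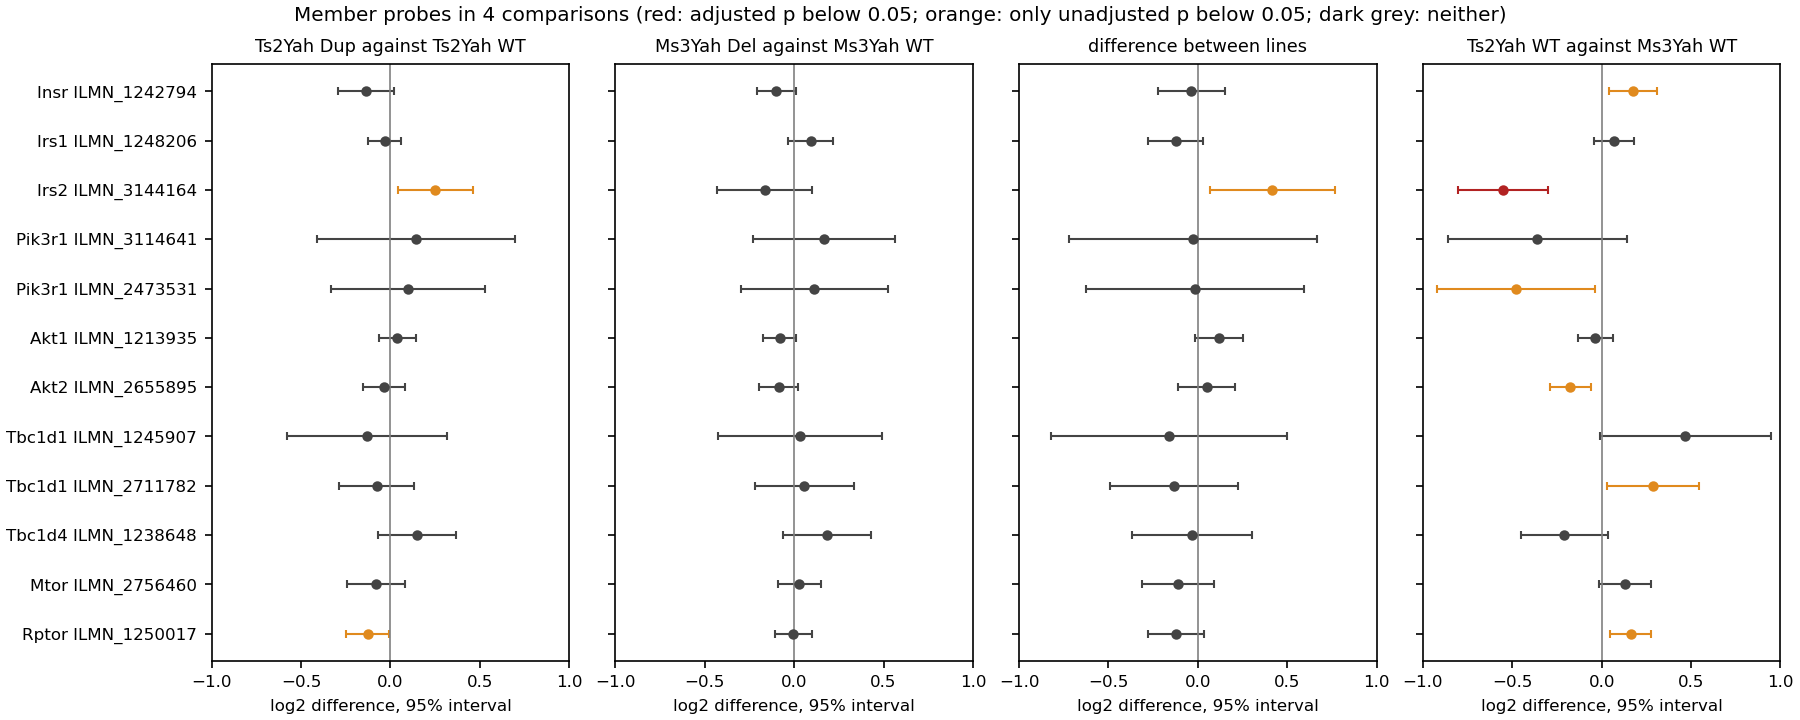
Log2 difference (x axis, points) with 95% interval (bars) for the brightest probe of each member and for every probe detected on all arrays, in the 2 lines, in the difference between the lines and in the diploid mice of the 2 lines. Irs2 is the only probe in red (adjusted p below 0.05), in the diploid comparison at -0.55, while orange marks an unadjusted p below 0.05 alone: Irs2 and Rptor in the Ts2Yah line, Irs2 in the difference between lines, and Insr, Rptor, Akt2, the second Tbc1d1 probe and the second Pik3r1 probe in the diploid comparison.

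More member probes passed an unadjusted p of 0.05 between the diploid mice of the 2 lines than between either aneuploid group and its littermates. Irs2 was the only member probe of 27 with an adjusted p below 0.05 there, where 2.7% of all tested probes passed. Its mean signal was 361 ± 41.5 (SD, n = 5) in Ts2Yah WT against 535 ± 107 (n = 6) in Ms3Yah WT, a log2 difference of -0.55 (SE 0.12, 95% interval -0.80 to -0.30, adjusted p = 0.0155). All 5 Ts2Yah WT mice lay below the mean of the others, and the groups overlapped by 1 mouse on each side (424 against 414). The exact permutation test gave p = 0.00649, two-sided. With each array scaled to its median instead of quantile normalisation the difference was -0.53 with an adjusted p of 0.155. Unadjusted, 8 of 27 member probes (29.6%) passed, 3 higher and 5 lower in Ts2Yah WT, beside 16.6% of all tested probes (8.89% higher, 7.67% lower), and 5 of the 8 detected on every array did, beside 29.6% of all probes so detected. The dim Rptor probe ILMN_1218033 was the 1 member probe whose groups did not overlap (2.72% of all tested probes). It was lower in Ts2Yah WT (log2 difference -0.095), whereas the bright Rptor probe was higher there.

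Further members differed between the diploid groups without passing the adjusted threshold. Insr was higher in Ts2Yah WT by 0.18 (SE 0.07, adjusted p = 0.170) and Rptor by 0.16 (SE 0.05, adjusted p = 0.119), both on the log2 scale. The second Tbc1d1 probe was higher by 0.29 (SE 0.12, adjusted p = 0.241), and the brightest by 0.47 (SE 0.23, adjusted p = 0.313). The second Pik3r1 probe differed by -0.48 (SE 0.21, adjusted p = 0.256) and Akt2 by -0.17 (SE 0.06, adjusted p = 0.0982). The 2 brighter Mtor probes disagreed in direction. The brightest differed by 0.13 (SE 0.07, adjusted p = 0.370), and the dimmer ILMN_2563765, detected on 11 arrays, by -0.12 (SE 0.05, adjusted p = 0.202). These groups belong to lines that were bred apart, so the line, the cohort and the handling of the arrays cannot be told apart. Adipocyte markers moved with this comparison as well: their summed level ran from 1411 to 7250 in Ts2Yah WT and from 3279 to 23410 in Ms3Yah WT, and 6 of 7 were lower in Ts2Yah WT at an unadjusted p below 0.05 and 0 at an adjusted one (median log2 difference -1.43). Of 3 Schwann cell markers 2 were higher in Ts2Yah WT without adjustment and 1 with it (median 0.32), with summed levels of 1489 to 4902 in Ts2Yah WT and 1454 to 2505 in Ms3Yah WT. Of 6 endothelial markers 1 was higher with adjustment (median 0.03, summed levels 1683 to 1909 against 1515 to 1926). Of 5 macrophage markers 3 were lower without adjustment and 0 with it (median -0.39, summed levels 693 to 1624 against 911 to 2162). Within groups Irs2 had r = 0.13 with the mean log2 level of the adipocyte markers over 23 mice. The part of these cell types in the Irs2 difference was not tested.

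The groups were also ordered by the mean log2 signal of the brightest probe of each gene. Irs2 ran from Ts2Yah WT through Ts2Yah Dup and Ms3Yah Del to Ms3Yah WT, so that each aneuploid group lay between its own littermates and the other line. Akt2 had both Ts2Yah groups below both Ms3Yah groups, as did Pik3r1 and Tbc1d4. Insr, Rptor, Tbc1d1 and Mtor had both Ms3Yah groups below both Ts2Yah groups. A dimmer Mtor probe, ILMN_2563765, detected on 11 arrays, ran the other way. Its means were 95.2 in Ts2Yah Dup and 97.1 in Ts2Yah WT against 103 in Ms3Yah Del and 106 in Ms3Yah WT. By their brightest probes the groups were not cleanly separated. For all 10 genes every pair of neighbours in the order overlapped, and no such pair reached an exact permutation p under 0.056.

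The mice within a group differed in Pik3r1 and Tbc1d1 far more than in Mtor and Rptor. The pooled within-group SD on the log2 scale was 0.43 for the brightest Pik3r1 probe and 0.41 for that of Tbc1d1, at percentiles 97.3 and 96.9 of the 13006 probes detected on every array, whose median was 0.14. It was 0.21 for Irs2 (percentile 83.6), 0.12 for Mtor (36.1), 0.11 for Insr (28.05) and 0.09 for Rptor (11.3). The 2 detected probes of Pik3r1 moved together (r = 0.95 over 23 mice after group means were taken off), as did those of Tbc1d1 (r = 0.88), so the spread of these genes was read alike by separate probes of the same RNA samples.

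Pairs of different members were compared in the same way, over the 28 pairs of 8 detected probes, as a description. These values share the arrays, their normalisation and any difference in cell content between muscles. Insr ran opposite to Pik3r1, with r = -0.58 (Spearman rho -0.60) over 23 mice. In the 11 mice of the Ts2Yah line r was -0.84 (rho -0.73), and -0.71 without the 2 mice farthest from the median of Insr. In the 12 mice of the Ms3Yah line it was -0.11 (rho -0.15), and -0.33 without 2 mice. The second Pik3r1 probe gave -0.87 and -0.29, and -0.73 and -0.49 without 2 mice. Between Pik3r1 and Tbc1d1 r was 0.72 in the Ts2Yah line (rho 0.62, and 0.75 without the 2 mice farthest in Pik3r1) and -0.19 in the Ms3Yah line (rho -0.34, and -0.32 without 2 mice). These pairs were picked after the values of all 28 were seen, and the difference between the lines' correlations was not tested. Insr and Mtor ran together in both lines (r = 0.50 and 0.57). Insr ran opposite to the second Tbc1d1 probe in both lines (r = -0.56 and -0.61) and to the brightest one (r = -0.48 and -0.38). Irs2 had no correlation with Pik3r1 or Mtor beyond 0.10 in size over 23 mice, and -0.30 with the brightest Tbc1d1 probe. By line, Irs2 had 0.33 with Mtor in the Ts2Yah line and -0.12 in the Ms3Yah line. With Rptor it had -0.23 and 0.54.

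**Figure D3:**
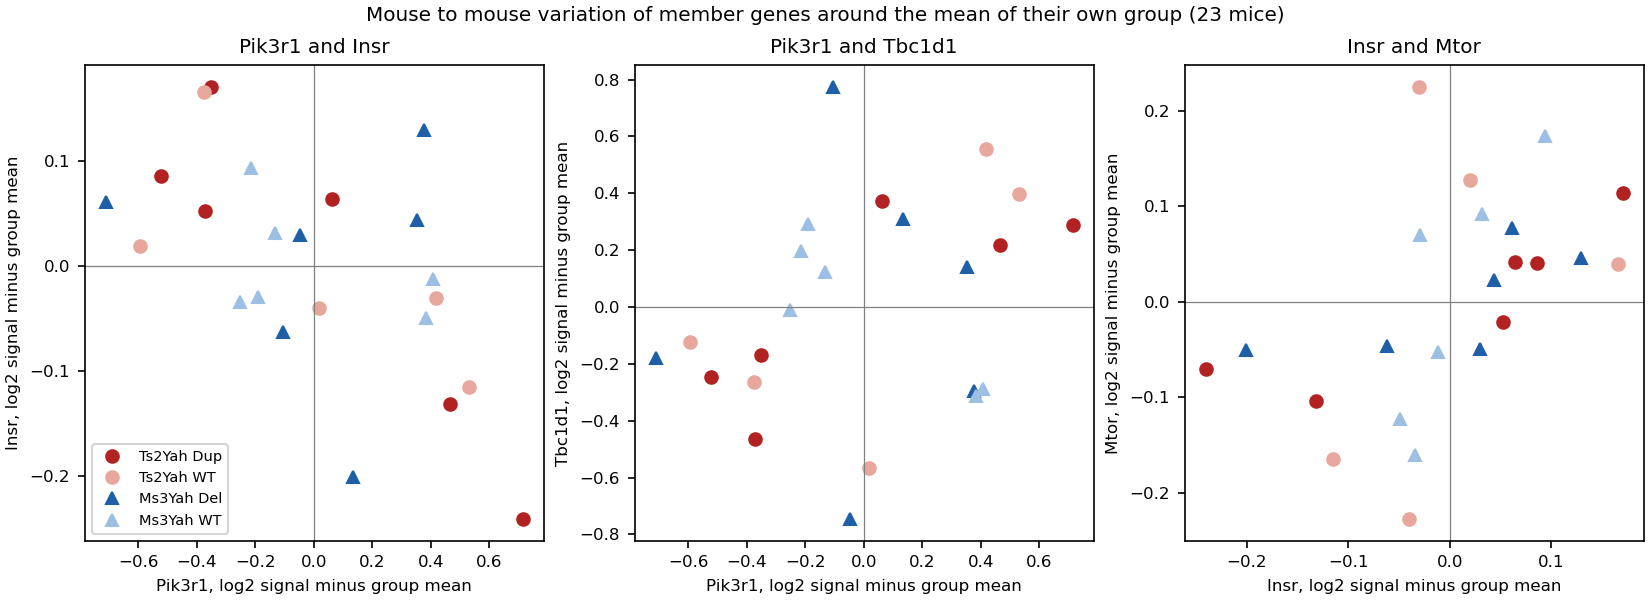
Log2 signal minus the mean of the own group for 3 pairs of members, with 1 point per mouse (circles for the Ts2Yah line, triangles for the Ms3Yah line). The correlation r was -0.84 for the circles and -0.11 for the triangles between Pik3r1 and Insr, 0.72 and -0.19 between Pik3r1 and Tbc1d1, and 0.50 and 0.57 between Insr and Mtor; the differences between lines were not tested.

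By the same measure, the genes most like a member over the 23 mice were found among 7822 or 7823 detected genes. Pik3r1 was nearest to Dusp7, a phosphatase of MAP kinases (r = 0.85), Pdp2, a phosphatase that activates pyruvate dehydrogenase (0.84), and Ech1, an enzyme of fatty acid oxidation (0.84). Irs2 was nearest to Exoc3, a subunit of the exocyst that tethers vesicles (r = 0.79), Zfp335 (0.76) and AU040320 (0.75). Tbc1d1 was nearest to Oxsr1 (0.80), Stard3 (0.78) and Tns3 (0.76), and Tbc1d4 to Tmem63b (0.82), Abhd18 (0.81) and Stard10 (0.79). Mtor was nearest to Mafg (0.74), Taf9b (0.69) and 2810001G20Rik (0.68), Rptor to Dnajc16 (0.77), Capns1 (0.73) and Inf2 (0.71), and Insr to Btaf1 (0.69), Cd164 (0.69) and Cltc (0.67). For the dim members the nearest were Nes, Yipf6 and Afg3l2 for Irs1 (0.75 to 0.72), Slc38a9, Zbtb22 and Prrc2c for Akt1 (0.66 to 0.65) and Pwwp2b, Siah1b and Cox17 for Akt2 (0.70 to 0.64).

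The wider pathway was read from 8 lists with 135 genes, the members among them, of which 126 had a probe above the threshold and 89 had their brightest probe detected on every array. In the Ts2Yah line 0 of 126 genes passed the adjusted threshold. Unadjusted, 7 were higher and 5 lower in the duplication (9.52%), against 5.56% of all tested probes and 9.77% of those detected on every array. For the Ms3Yah line 0 of 126 passed with adjustment, and 4 were higher and 7 lower without it (8.73%, against 5.16% of all tested probes, 2.71% higher and 2.46% lower, and 8.38% of those detected on every array). The difference between the lines' changes passed for 0 of 126 genes with adjustment, and without it was positive for 13 and negative for 4 (13.5%, against 5.71% of all tested probes, 2.68% positive and 3.03% negative, and 9.1% of those detected on every array). The values named below were picked by size of p in each list and line, and none of them passed the adjusted test within a line.

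The amino acid arm above mTOR complex 1 held the smallest p-values of the Ts2Yah line. Lamtor4, a subunit of the Ragulator that anchors this complex at the lysosome, had 4445, 4491, 4592, 4646, 4674 and 4782 in Ts2Yah Dup and 3806, 3861, 4108, 4298 and 4336 in Ts2Yah WT. The 2 groups did not overlap, as for 0.537% of all tested probes, with a log2 change of 0.18 (SE 0.04) and an adjusted p of 0.674. Both groups of the other line lay at 4410.0 or more, so Ts2Yah WT was the low group. Rragd, a Rag GTPase that recruits mTOR to the lysosome, ran from 548 to 804 against 428 to 573, a log2 change of 0.45 (SE 0.11, adjusted p = 0.732). Of the 28 measured genes of this list 23 had a log2 change above 0 (49.7% of all tested probes did), with a median of 0.04. Unadjusted, 4 were higher and 1 lower (2.74% and 2.81% of all tested probes were). The other 3 of these, named after their values were seen, were the Ragulator subunit genes Lamtor1 (0.19) and Lamtor2 (0.20) and, lower, Tsc1 (-0.12), a brake on mTOR complex 1. Among Ms3Yah mice 9 of 28 had a change above 0 (50% of all tested probes did), with a median of -0.04. Without adjustment 3 were higher and 3 lower (2.71% and 2.46% of all tested probes were). There the leading genes were Rhebl1, a relative of the mTOR activator Rheb, with 113 to 132 in Ms3Yah Del against 104 to 112 in Ms3Yah WT (log2 change 0.16, SE 0.04, adjusted p = 0.776; groups that did not overlap, as for 0.284% of all tested probes), and Ddit4l, an inhibitor of mTOR complex 1, with 3188 to 8106 against 6674 to 9403 (-0.60, SE 0.19, adjusted p = 0.842). Named after their values were seen, Castor1 (0.12) and Lamtor3 (0.10) were the other 2 higher genes, and Tsc1 (-0.22) and Lamtor4 (-0.11) the other 2 lower ones.

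Below mTOR complex 1, Eif4ebp2 had the largest change of the pathway in the Ts2Yah line. It encodes a repressor of translation initiation that the complex switches off by phosphorylation. Its signals were 1098, 1143, 1345, 1446, 1466 and 1494 in Ts2Yah Dup and 537, 708, 754, 1144 and 1196 in Ts2Yah WT. Fitted, the log2 change was 0.67 (SE 0.18, adjusted p = 0.795), and 4 of 6 duplication mice lay above every littermate. Ulk1, an autophagy kinase that the complex inhibits, had 438 ± 42.4 (SD, n = 6) against 508 ± 69.1 (n = 5), a log2 change of -0.21 (adjusted p = 0.884). In the Ms3Yah line the leading genes of this list were Tfeb (-0.08) and Eif4b (-0.13). There 0 of 14 genes were past an unadjusted p of 0.05, where 5.16% of all tested probes were. Within the mTOR complexes, 1 of 12 genes passed without adjustment in the Ts2Yah line, Rptor (5.56% of all tested probes did). For the Ms3Yah line 2 did, Akt1s1 and the dim Prr5l (5.16% of all tested probes did). Akt1s1, an AKT substrate that restrains mTOR complex 1, had 973 against 1066 (log2 change -0.13). Prr5l, a partner of mTOR complex 2, had a log2 change of 0.08. Prr5, the other gene named for the Ts2Yah line, had a log2 change of -0.09.

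In the arm from the receptor to AKT, few genes stood out. Inppl1, a phosphatase that removes the lipid made by PI3-kinase, had 1594 to 2072 in Ts2Yah Dup and 2074 to 2417 in Ts2Yah WT, groups that did not overlap, as for 0.537% of all tested probes (log2 change -0.20, SE 0.07, adjusted p = 0.835). It was the 1 of 13 brakes on the pathway past an unadjusted p of 0.05 in that line, where 5.56% of all tested probes were, and 0 of 13 were in the Ms3Yah line, where 5.16% were. Inpp5k, a phosphatase of the same lipid, had a log2 difference of -0.10 in the Ts2Yah line, and Socs3 and Grb14, which restrain the receptor, had -0.36 and 0.13 in the Ms3Yah line. Of the 15 receptor and docking genes, Irs2 passed without adjustment in the Ts2Yah line (5.56% of all tested probes did). None passed in the Ms3Yah line (5.16% of all tested probes did), where Igf2r had -0.14. Of the 12 PI3-kinase and PDK1 genes none passed in either line, beside the same shares of all tested probes. The smallest p-values were those of Pik3r5 (-0.04) and Pik3cd (-0.09) in the Ts2Yah line and Pik3r2 (-0.10) and Pik3ca (-0.07) in the Ms3Yah line. Of the 14 AKT kinases and substrates 1 passed in each line, again beside 5.56% and 5.16% of all tested probes. These were Pfkfb2 (-0.20), which raises glycolytic flux, and Akt1s1. Foxo6 was next in the Ts2Yah line with -0.11.

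Among 20 genes of GLUT4 traffic and glucose uptake, Stxbp3 was past an unadjusted p of 0.05 in the Ts2Yah line (log2 change 0.19, SE 0.07). In that line 5.56% of all tested probes were, and the dim Slc2a12 (0.07) came next in the list. Stxbp3 encodes a binding partner of syntaxin 4, the membrane receptor of GLUT4 vesicles. Among Ms3Yah mice 3 of the 20 genes were lower at an unadjusted p below 0.05 (2.46% of all tested probes were, and 8.38% of the probes detected on every array passed in either direction), led by Slc2a1, which encodes the basal glucose transporter GLUT1, and Stx4a, which encodes syntaxin 4. Slc2a1 had 243, 248, 265, 266, 287 and 304 in Ms3Yah Del and 268, 302, 329, 332, 344 and 371 in Ms3Yah WT, a log2 change of -0.27 (SE 0.08, adjusted p = 0.785). Stx4a had 544 ± 31.4 (SD, n = 6) against 628 ± 62.8 (n = 6), a log2 change of -0.20 (adjusted p = 0.843). The third, named after its value was seen, was Sort1, which encodes the sorting receptor sortilin (-0.17). Of the 20 genes 11 had a change above 0 in the Ts2Yah line and 4 in the Ms3Yah line, where 49.7% and 50% of all tested probes did.

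**Figure D4:**
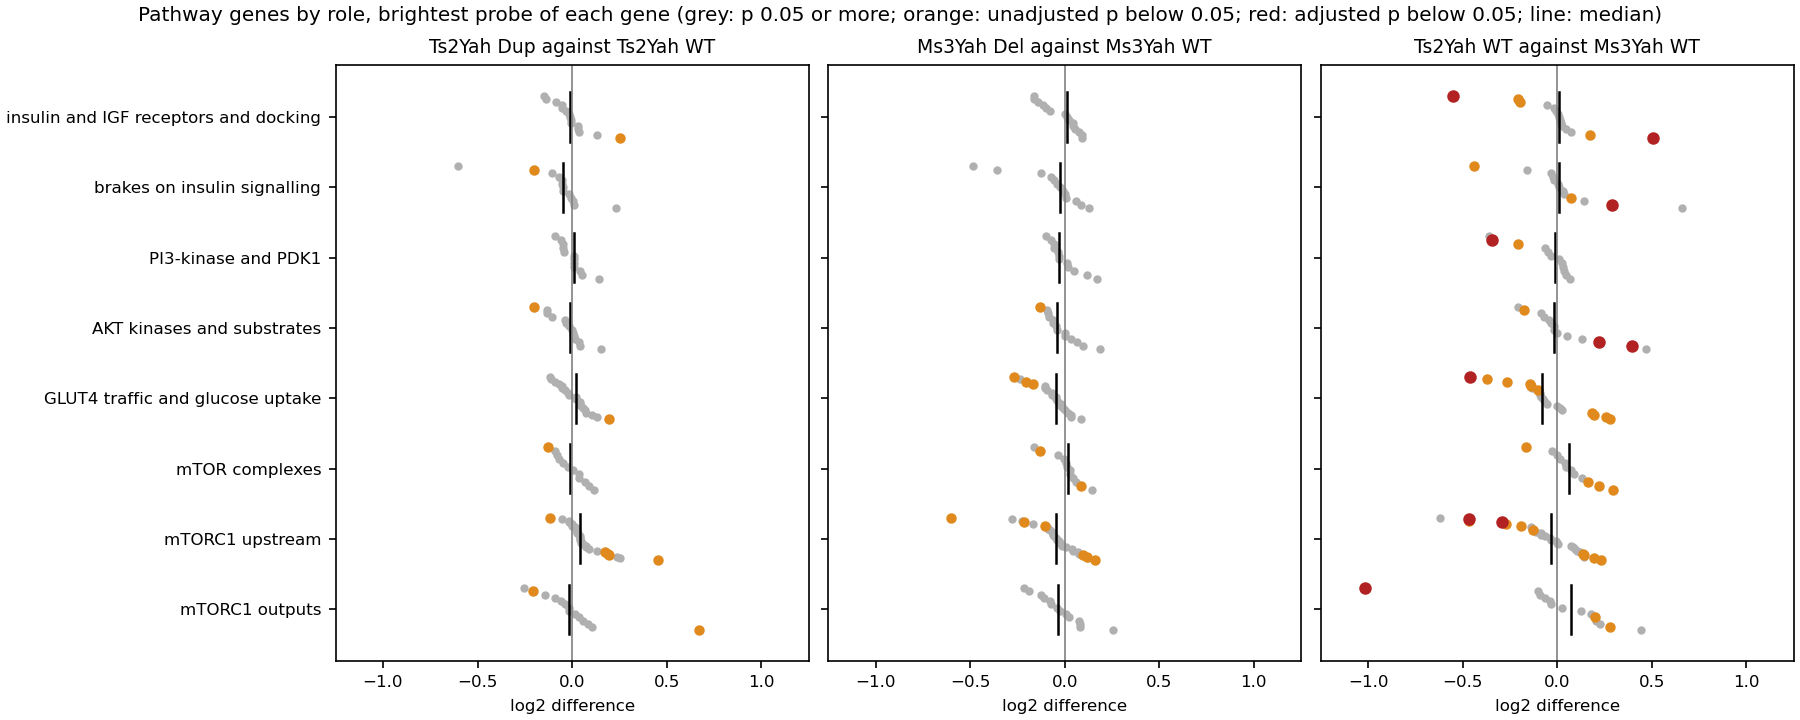
Log2 difference (x axis) of the brightest probe of each pathway gene, 1 point per gene, in 8 role lists (rows) and 3 comparisons (panels), with a black line at the median of each list. Orange points (unadjusted p below 0.05) lie on both sides of 0 in each line, and red points (adjusted p below 0.05) appear only in the diploid comparison, 4 higher and 6 lower.

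Between the diploid groups 10 of 126 pathway genes passed the adjusted threshold (7.94%), against 2.7% of all tested probes and 7.37% of those detected on every array. With each array scaled to its median 3 passed, and with the methods' t-test after Benjamini-Hochberg adjustment 0 did, alternatives added after seeing the data. The 10 are named after their values were seen. Higher in Ts2Yah WT were Gab1, a docking protein (log2 difference 0.51, adjusted p = 0.00443), Gsk3b, a kinase that AKT inhibits (0.40, adjusted p = 0.00804), Inpp5k (0.29, adjusted p = 0.0241) and Foxo6 (0.22, adjusted p = 0.0455). Lower were Eif4ebp2, Lamtor2, Stxbp3, Pik3r3 and Lamtor4 beside Irs2. Eif4ebp2 had 868 ± 288 (SD, n = 5) against 1696 ± 279 (n = 6), a log2 difference of -1.02 (SE 0.16, adjusted p = 0.00125). Its groups did not overlap, nor did those of Gab1, Inpp5k, Stxbp3, Pik3r3 and Lamtor4, as for 2.72% of all tested probes. Lamtor2, another Ragulator subunit, differed by -0.47 (adjusted p = 0.00394), Stxbp3 by -0.46 (adjusted p = 0.00114), Pik3r3, a regulatory subunit of PI3-kinase, by -0.35 (adjusted p = 0.00667) and Lamtor4 by -0.29 (adjusted p = 5.8e-04). This comparison shares the Ts2Yah WT arrays with the test of the duplication, so the same low values of Irs2, Eif4ebp2, Lamtor2, Lamtor4 and Stxbp3 in Ts2Yah WT enter both.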

How the data were processed

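The authors hybridised RNA to Illumina MouseWG-6 v2.0 arrays and deposited, per probe and array, an intensity that was neither background-subtracted nor normalised (lowest 66.7) and a detection p-value. A diploid Ts2Yah array that they excluded after a principal component analysis was not analysed here. A second deposited table holds background-subtracted, quantile-normalised linear intensity values with column medians of 3.81 to 3.85; its method of background subtraction stays unknown, and it served as an alternative. Columns of per-sample values without a sample in the labels: none.

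Raw intensities (array medians 84.7 to 101.5) received quantile normalisation across all 23 arrays, then log2 transformation. As in the study's methods, testing in a line required 1 or more of its arrays to exceed 89.8 (log2 6.49), the 35th percentile of all signals. Each line was fitted apart with limma 3.58.1 in R 4.3.3, and the difference between lines and the diploid comparison were taken from a fit of all 4 groups; p-values were adjusted over all tested probes. The brightest probe has the highest mean log2 signal. Platform annotation named 34885 probes with 1 gene, 18 with several and 10378 with none. For 34807 entries with 1 gene the current symbol was looked up through the gene identifier, whether or not it had changed. Scripts were tested on simulated data. Named pathway genes have an adjusted p below 0.05 in a line or else the 2 smallest p-values of their list in that line. The members and lists were chosen with earlier results of these data known. The number of arrays, 5 or 6 in a group, limits the precision. P-values set a difference between groups against the spread between mice, not against that between litters or cohorts.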

Additional observations from a re-analysis of the deposited data

Results flagged for a closer look

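In 4 of 48 sets of group values, 1 mouse lay far from the others of its group, and chance alone marks about 1 in 20 such sets. The bright Rptor probe stood at 406 in Ts2Yah Dup replicate 34730, with the nearest mouse at 352 and the lowest at 323. Irs1 stood at 117 in Ms3Yah Del replicate 37039, with the nearest mouse at 101. In Ts2Yah WT, Akt1 stood at 100.01 in replicate 34923 and Akt2 at 113 in replicate 34561, with the nearest mice at 91.1 and 96.7. The last 3 probes lie near background. Without replicate 34730 the log2 change of Rptor in the Ts2Yah line was -0.17 in place of -0.13.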

How the results depend on the processing

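No paired analysis was possible because the replicate numbers are mouse identifiers that no 2 groups share. No alternative gave a member probe an adjusted p below 0.05 within a line or in the difference between lines. In the Ts2Yah line the count at an unadjusted p below 0.05 was 3 and became 1 with neqc normalisation, 1 with median scaling, 0 with the series matrix values and 1 with the detection filter, 2 with the methods' t-test, 4 with Xist as a covariate (both detected Tbc1d1 probes joined and the dim Rptor probe left), 4 with all 4 groups in 1 fit (Insr joined), and 0 to 3 with 1 mouse left out: 0 without Ts2Yah Dup replicate 34661, and 1 without Ts2Yah Dup replicate 34725 or Ts2Yah WT replicates 34723, 34923 or 34925. In the Ms3Yah line it was 0 and became 1 with neqc and 1 with Xist as a covariate, and 0 to 2 with 1 mouse left out (2 without Ms3Yah Del replicate 37148; 1 without 37072 or 37074 or without Ms3Yah WT replicate 37145). In the difference between lines it was 1, 0 with median scaling, and 1 to 2 with 1 mouse left out (2 without Ms3Yah Del replicate 37148, Ts2Yah Dup replicates 34730 or 34558, or Ts2Yah WT replicate 34923). In the diploid comparison the adjusted count of 1 became 0 with median scaling, 0 with the methods' t-test after Benjamini-Hochberg adjustment (8 without it), and 1 to 2 with 1 mouse left out, when Akt2 joined Irs2 without Ts2Yah WT replicate 34561. The Irs2 difference there was -0.53 with median scaling and -0.62 to -0.47 (adjusted p 0.00717 to 0.0490) with 1 mouse left out. The 10 pathway genes of that comparison became 3 with median scaling and 0 with the methods' t-test, a choice added after seeing the data. With the detection filter the unadjusted pathway counts in the Ts2Yah line went from 1 to 0 for the mTOR complexes and from 5 to 3 above mTOR complex 1, and in the Ms3Yah line from 2 to 1 for the mTOR complexes. Signs of changes near 0 turned: Pik3r1 in the Ts2Yah line to -0.079 with Xist as a covariate, and in the Ms3Yah line Tbc1d1 to -0.0058 with median scaling and -0.0089 with array weights and Mtor to -0.00085 with median scaling. With 1 mouse left out, the ranges that crossed 0 were -0.0067 to 0.27 for Pik3r1, -0.060 to 0.013 for Akt2 and -0.27 to 0.0088 for Tbc1d1 in the Ts2Yah line, and -0.12 to 0.18 for Tbc1d1, -0.0034 to 0.063 for Mtor and -0.034 to 0.022 for Rptor in the Ms3Yah line. The cause of these shifts was not tested. Irs1, Akt1 and most Akt2 values lie near background, which limits what these arrays can show of them.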
